A study of Danio rerio with 16 samples.

Results

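The genes described here are the long noncoding RNA (lncRNA) genes of cultured zebrafish (Danio rerio) ovary. A gene was a member when the deposited annotation called it lncRNA, when it had a row in all 3 count tables and carried no copy suffix in its identifier, and when its reads summed to at least 10 over the 4 control libraries. The members were thus chosen by their measured control reads, and 487 genes met the rule, out of 1022 lncRNA rows without a suffix and 26910 genes of all kinds that the tables shared. At the edge of the rule, 23 members had exactly 10 control reads, among them LOC100536359, LOC101882548 and LOC101882864, and 22 lncRNA rows just outside it had 9, among them LOC100536946, LOC101882397 and LOC101884425.

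Ovaries of wild-type zebrafish from outdoor ponds were cut into pieces, and the pieces were cultured for 6 h at 28 °C with the DMSO vehicle, with the peptide PNX-20 (phoenixin, 100 nM), or with A8535 or PT-91 (each 5 µM), synthetic agonists of the receptor SREB1. PT-91 is a derivative of A8535 in which the chlorine substituents of the benzamide ring are replaced by a methoxy and a trifluoromethyl group. Each group had 4 libraries of poly(A) RNA. Which fish gave which library is not stated in the labels, so p-values measure the spread between these libraries, and pieces of the same ovary may stand behind several of them.

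A lncRNA is transcribed, capped, spliced and usually polyadenylated like an mRNA but is not annotated with a protein. Some act in the nucleus on chromatin or transcription, some bind microRNAs or proteins in the cytoplasm, and others are byproducts of transcription from a neighbouring promoter or host small RNAs in their introns. Zebrafish ovary stores large amounts of maternal RNA in its oocytes, and oocytes are where most RNA of the tissue is found.

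Library totals were 10232545 to 15102989 reads over the shared genes. The 10 oocyte markers (h1m, gdf9, bmp15, figla, buc, zar1, ddx4, dazl, zp3a.1 and zp2.1) were all measured and summed to 5622 to 10963 CPM (each gene's reads scaled to a common library size) in the 16 libraries. Pancreatic markers were present in all groups: 6 of 8 were measured, with sums of 3.82 to 79.3 CPM in control, 16.7 to 107 with PNX-20, 17.4 to 198 with A8535 and 29.9 to 155 with PT-91. The 7 macrophage and leukocyte markers summed to 1.37 to 10.3 CPM in control, 2.66 to 22.0 with PNX-20, 8.17 to 35.5 with A8535 and 2.82 to 16.4 with PT-91. No measured marker of these 3 lists was at 0 in every library, and the part of other cells in the results below was not tested. In bulk RNA, fewer cells of a type and less RNA per cell cannot be told apart. The libraries written below as high-mitochondrial stood apart. These were A8535 libraries 2 and 3 and PT-91 libraries 1 and 2. They had 2.31% to 4.08% of reads on mitochondrial genes, against 0.190% to 1.57% in the other 12. They also had 309 to 356 members with a read, against 367 to 450. Genes of all kinds with a read ran from 19047 to 21736, against 20878 to 23967, and these ranges overlapped. A8535 library 3 (21736) had more than PNX-20 libraries 1 and 3 (20878 and 21617). All the high-mitochondrial libraries came from agonist groups. The paper reports higher levels of oxidative phosphorylation genes, including NADH dehydrogenases, in zebrafish given PT-91. Leaving these libraries out thus selects on a measure that treatment may change, and it shrinks the agonist groups. The cause of their mitochondrial share was not tested.

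Most lncRNA genes were scarce, and a handful carried most of the reads. The median member had 0.997 CPM over the 16 libraries (quartiles 0.421 and 3.62), against 10.7 CPM for the 17973 protein-coding genes chosen by the same control minimum. Per kilobase of gene length the medians were 1.00 RPKM (CPM divided by length) for members and 4.01 for protein-coding genes, so part of the distance in CPM went with length (median 1095 bases against 2429). Only 66 members (13.6%) reached 10 CPM, against 51.1% of protein-coding genes, and 244 members stayed under 1 CPM. In the 12 treated libraries, which the rule did not use, 175 members (35.9%) had a read in every library, against 72.6% of protein-coding genes.

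The leading member took 26.4% of all member reads, the leading 6 took 62.9%, and the leading 50 took 87.0%, which left the other 437 members with the small remainder. As a share of all gene reads, the control libraries gave members 0.500% ± 0.202 (SD, n = 4). PNX-20 libraries gave 0.545% ± 0.171, A8535 libraries 0.667% ± 0.529 and PT-91 libraries 0.928% ± 0.638. The ranges of the 4 groups overlapped. The highest shares belonged to A8535 library 2 (1.46%) and PT-91 library 2 (1.85%), both among the high-mitochondrial libraries, and no other library exceeded 0.817%.

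**Figure D1:**
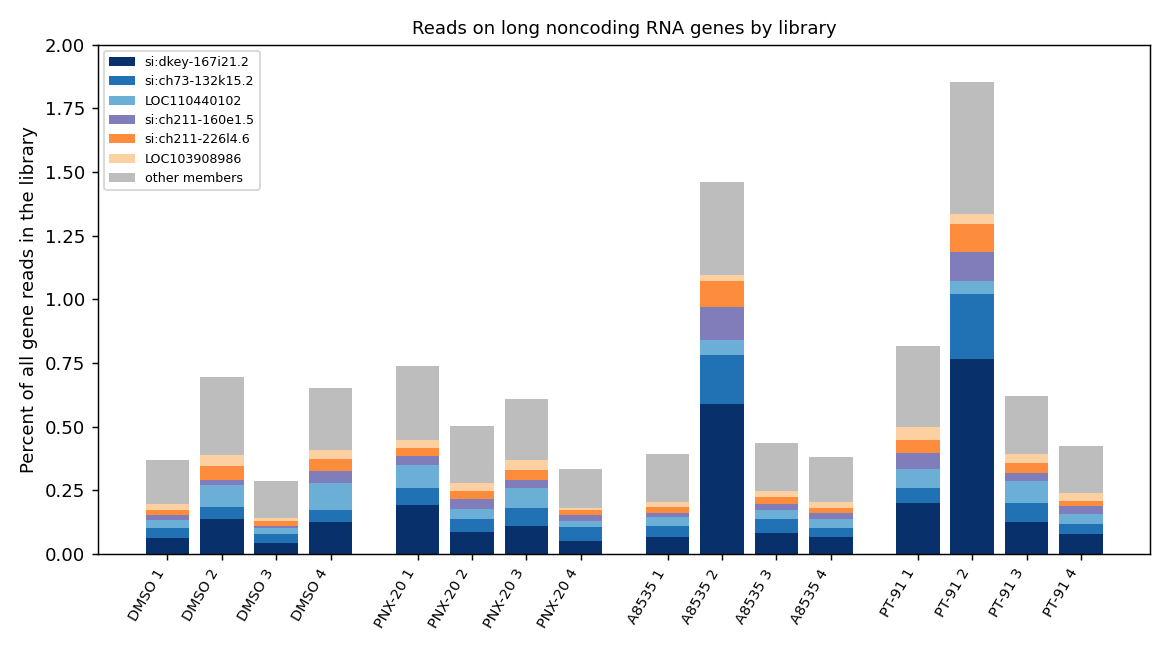
Bars give the percent of all gene reads in each library that fell on the lncRNA genes, split into the 6 most abundant members and the other 481. A8535 library 2 (1.46%) and PT-91 library 2 (1.85%) stand above the other 14 libraries. In these 2 libraries si:dkey-167i21.2 held 0.590% and 0.765% of all gene reads, and the other 481 members together 0.364% and 0.519%.

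The most abundant member was si:dkey-167i21.2 (chromosome 1, 18810891 to 18811487 on GRCz11, minus strand, 439 bases). The deposited description matched it to thymosin beta-b of carp, a small protein that binds actin monomers, and RefSeq now names it tmsb5. It had 613, 1377, 501 and 1227 CPM in the control libraries, 1983, 771, 1156 and 541 with PNX-20, 631, 6055, 744 and 605 with A8535, and 2119, 8779, 1253 and 655 with PT-91. The groups overlapped throughout, and the 2 values above all others were A8535 library 2 and PT-91 library 2.

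Next came si:ch73-132k15.2 (chromosome 8, 50134009 to 50135648, minus strand), whose description holds the Pfam domain of beta-microseminoprotein, a small secreted protein. It was among the steadiest members in control, with 365, 465, 397 and 472 CPM, a coefficient of variation (CV) of 12.3%. With PNX-20 it had 710, 465, 711 and 588 CPM, with A8535 394, 1971, 462 and 339, and with PT-91 657, 2930, 729 and 336. Again A8535 library 2 and PT-91 library 2 were the highest of the 16.

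Further down stood LOC110440102 on chromosome 11 (567 ± 271 CPM, SD over n = 16 libraries), with no annotated match, and si:ch211-160e1.5 on chromosome 5 (422 ± 375 CPM), which RefSeq now calls nupr1a. Nupr1 proteins are small nuclear proteins induced by stress in mammals. The fifth, si:ch211-226l4.6 on chromosome 7 (417 ± 317 CPM), carried the domain of cytochrome c oxidase subunit VIII, part of the last complex of the respiratory chain, and newer RefSeq annotation lists it as protein-coding. LOC103908986 on chromosome 16 (303 ± 125 CPM) had no match.

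The label lncRNA was therefore checked against the annotation. Of the 487 members, 79 (16.2%) carried a Swiss-Prot or Pfam match in their description, and those 79 held 49.6% of member reads. Their median was 1.55 CPM, against 0.932 CPM for members without a match. By Entrez ID, 236 members were found in RefSeq's GRCz12tu annotation, which calls 206 of them lncRNA and 30 protein-coding. LOC100537077, named after its values were seen, matched mouse mitoregulin, a micropeptide of mitochondria, had 38.3 ± 30.0 CPM, and is among the 30. A match in a description says only that part of the sequence resembles a protein, and the 79 genes are kept in all counts below.

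Few lncRNAs of known function were members. The steadiest was oip5-as1 (chromosome 13, 33261131 to 33267584, minus strand), also called cyrano, a lncRNA conserved among vertebrates and known in mammals for directing the destruction of the microRNA miR-7. It averaged 28.8 CPM and 6.25 RPKM. Its control values were 18.3, 17.1, 14.3 and 14.8 CPM (CV 11.7%), the lowest control CV among the 98 members with a mean control level of at least 5 CPM. It had 28.0, 39.5, 33.6 and 18.0 CPM with PNX-20, 26.1, 36.4, 38.4 and 21.6 with A8535, and 54.3, 44.6, 22.8 and 32.6 with PT-91. Only PNX-20 library 4, at 18.0 CPM, fell within the control range, and the other 11 treated libraries were above all 4 controls. Of 8 granulosa markers, 6 were measured (foxl2a and foxl2b were not). They summed to 37.2, 87.8, 17.5 and 51.9 CPM in the control libraries, 80.0, 63.3, 97.8 and 31.0 in the PNX-20 libraries, 82.4, 92.9, 118 and 39.5 in the A8535 libraries, and 94.7, 80.3, 54.1 and 74.8 in the PT-91 libraries. In each group the lowest sum fell in the library with the lowest oip5-as1. The highest sum fell in the library with the highest oip5-as1 only with A8535 and PT-91, not in control or with PNX-20. The group medians of the granulosa sums were 44.5 CPM in control against 71.6 to 87.6 CPM in the treated groups, with overlapping ranges. The 5 smooth muscle markers had group medians of 46.3 CPM in control and 62.2 to 103 CPM in the treated groups, with overlapping ranges. Medians of the theca and steroid markers went the other way, with 369 CPM in control and 272 to 341 CPM in the treated groups. So did those of the endothelial markers, with 42.8 CPM in control and 26.7 to 39.5 CPM in the treated groups. The part of these cells in the level of oip5-as1 was not tested.

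The snoRNA host gene gas5 (chromosome 8, 16609829 to 16613482, minus strand), which in mammals carries box C/D small nucleolar RNAs in its introns and accumulates when growth stops, was among the least steady. Its control values were 7.02, 141, 1.67 and 24.4 CPM. It had 276, 7.25, 2.41 and 3.50 CPM with PNX-20, 4.85, 75.0, 0.826 and 7.32 with A8535, and 11.6, 3.57, 1.67 and 3.91 with PT-91. Single libraries in the control, PNX-20 and A8535 groups thus lay far above the rest, and no group was separated from another. The members that RefSeq names as intergenic lncRNAs by their neighbours were low: linc-epb41l4a (si:ch73-46j18.5 in the tables, chromosome 10) averaged 7.55 ± 4.00 CPM and linc.sox4a (si:dkey-150k17.3, chromosome 19) 1.84 ± 0.979 CPM.

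**Figure D2:**
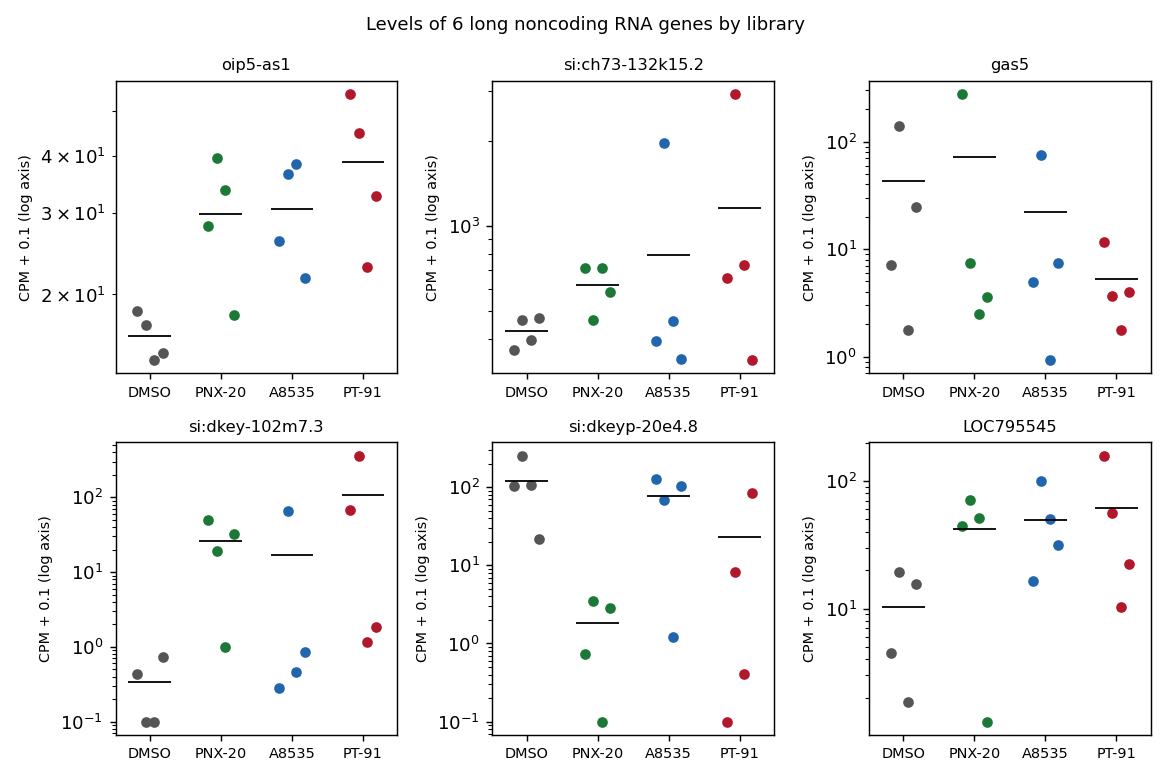
Points are the libraries of each group for 6 members, as CPM + 0.1 on a log axis, and horizontal lines are the group means. oip5-as1 ran from 14.3 to 18.3 CPM in control and from 18.0 to 54.3 CPM in treated libraries, whereas gas5, si:dkey-102m7.3 and si:dkeyp-20e4.8 spread far more widely within groups (gas5 from 1.67 to 141 CPM in control).

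The members were unevenly placed in the genome. Chromosome 4, whose long arm is known to be rich in repeats and poor in conserved genes, held 61 members, 12.5% of all, against 3.54% of the protein-coding genes. Chromosome 7 came next with 29, and 59 members (12.1%) lay on scaffolds outside the chromosomes, against 1.87% of protein-coding genes. The 61 were not split by arm. Placement of the annotated lncRNA genes that were not members was not counted, so whether it is particular to members was not tested. Levels on chromosome 4 (median 1.44 CPM) and on the scaffolds (1.38 CPM) were not lower than the median of all members. The strands were close to even, with 261 members on the minus strand and 226 on the plus strand.

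**Figure D3:**
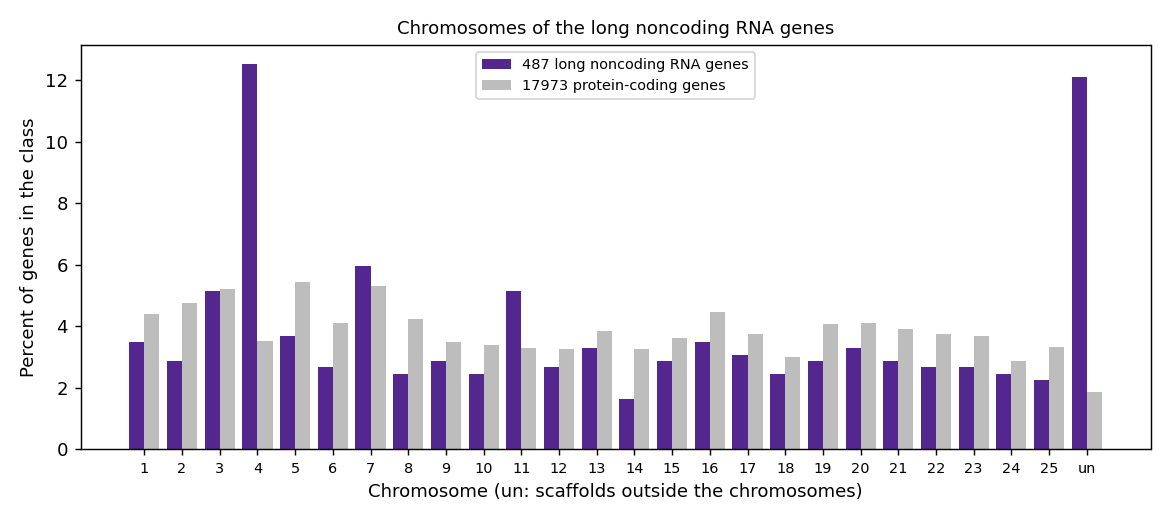
Bars give the percent of the 487 lncRNA genes and of the 17973 protein-coding genes on each chromosome, with scaffolds outside the chromosomes as un. Chromosome 4 held 12.5% of lncRNA genes and 3.54% of protein-coding genes.

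By coordinates, 89 members (18.3%) overlapped a protein-coding gene on the opposite strand, 13 (2.67%) overlapped on the same strand, 40 (8.21%) started within 1 kb of a protein-coding gene transcribed the other way, and 345 (70.8%) did none of these. Median levels were 0.867 CPM for the antisense class, 0.477 CPM for same-strand overlaps, 1.11 CPM for divergent starts and 1.09 CPM for the rest. The library kit marks strand, but which strand setting the counting used was not stated. For overlapping genes, reads of 1 partner may thus have been counted for the other or left uncounted.

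Among antisense members the highest was LOC108190350 on chromosome 1, which overlaps srd5a2a, a steroid 5-alpha-reductase gene. The member averaged 102 ± 36.4 CPM while srd5a2a itself averaged 0.590 CPM. The second was LOC101884632 on a scaffold (24.4 ± 32.4 CPM), and the third tmem238b on chromosome 16, antisense to si:dkey-17m8.1, where both rows were of like level (22.5 and 30.0 CPM). mcmdc2as, the antisense transcript of the meiotic gene mcmdc2 and named here after its values were seen, averaged 10.7 CPM against 0.347 CPM for mcmdc2. At srd5a2a and mcmdc2 the member was thus the higher of the pair, and at tmem238b the lower.

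Divergent starts were led by si:dkey-167i21.2, which starts 496 bases from slc25a51a (7.70 CPM). si:dkey-287g12.6 starts 187 bases from armc7, at 44.9 against 29.1 CPM, and LOC100537681 starts 86 bases from socs9, a suppressor of cytokine signalling, at 35.7 against 20.9 CPM. The highest same-strand overlaps were si:ch211-210c8.7 with bin2a (34.0 CPM for the member), LOC110438204 with cfap61 (10.2 CPM) and LOC108179136 with LOC567650 (4.67 CPM).

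Members varied more between libraries of the same group than protein-coding genes of like abundance. Over the 3 treated groups, the median CV of members at 10 to 50 CPM was 74.6% (n = 50), against 40.7% for protein-coding genes (n = 4785). At 2 to 10 CPM the medians were 80.8% and 62.4%, and at 0.5 to 2 CPM, where counting error is larger, 104% and 90.8%. In 26 members a single library held over 50% of the CPM summed over all 16, and PT-91 library 2 was that library for 10 of them. Control libraries 1, 2 and 4 were that library for 3, 4 and 5 members. A gene read mainly in 1 control library could be chosen through that library alone, among members and protein-coding genes alike. Grouped by mean CPM over the treated libraries only, 6 of the 26 had 0.5 to 2 CPM (3.85% of members at that level, against 1.95% of protein-coding genes). Another 5 had 2 to 10 CPM (4.39% against 1.08%), 1 had 10 to 50 CPM (2.00% against 0.125%) and 1 more than 50 CPM (6.25% against 0.0684%). The others were below 0.5 CPM in the treated libraries. Among them were members with few reads, such as LOC110438669 with 12 in control library 4, but also LOC103911788 with 109 in control library 2. PT-91 library 2 was also the highest library of 114 members, followed by A8535 library 2 with 65. Which library was highest was not counted for protein-coding genes, so whether these counts are particular to members was not tested.

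The extremes in control were si:ch73-14h10.2 (CV 197%) and si:ch211-193l2.7 (CV 189%). The first had 49.2, 0.321, 0 and 0.270 CPM in control, and the second 0.753, 0.562, 0 and 31.5 CPM. Both rows were thus read mainly in 1 control library. For si:ch73-14h10.2 this holds for its own row alone: with its 2 copy rows added, the control libraries had 98.1, 275, 80.9 and 220 CPM, so the gene was read in all 4. At the other end of the list, beside oip5-as1 and si:ch73-132k15.2, stood si:dkey-88l16.5 on chromosome 10 (CV 11.9%), LOC101885536 on a scaffold (CV 12.0%) and LOC101885114 on chromosome 7 (CV 14.9%).

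The genome assembly holds alternate versions of some regions, and 33 members had further rows for copies of the same gene in at least 1 table. For si:dkeyp-20e4.8 (chromosome 22, 25140922 to 25141428, plus strand, 226 bases) the 2 rows replaced each other. The chromosome 22 row had 105, 254, 106 and 21.9 CPM in control, 0.626, 3.43, 0 and 2.76 with PNX-20, 130, 69.1, 1.12 and 105 with A8535, and 0, 8.23, 0.303 and 83.5 with PT-91. The copy row had 0.0836, 2.17, 0 and 0.359 CPM in control, 165, 4.91, 239 and 68.9 with PNX-20, 0, 297, 108 and 0.170 with A8535, and 138, 4.12, 250 and 2.41 with PT-91. The chromosome 22 row held at least 98.4% of the summed CPM in each control library and at most 41.1% in each PNX-20 library, whereas A8535 and PT-91 had libraries of both kinds.

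Summed over both rows, si:dkeyp-20e4.8 averaged 122 ± 97.4 CPM (SD, n = 4) in the control libraries and 121 ± 102 CPM in those given PNX-20. The A8535 and PT-91 libraries averaged 177 ± 126 and 122 ± 99.9 CPM. At si:ch73-14h10.2 on chromosome 6 the own row also held a changing part of the sum, between 0% and 90.4%, but without such replacement. Its 2 highest shares, 83.6% and 90.4%, fell in PNX-20 library 3 and PT-91 library 3, where the sum was only 6.51 and 5.53 CPM. At LOC795545 on chromosome 18 (16.8% to 75.3%) and LOC110438638 on chromosome 4 (43.0% to 88.7%) both rows were read in every library.

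**Figure D4:**
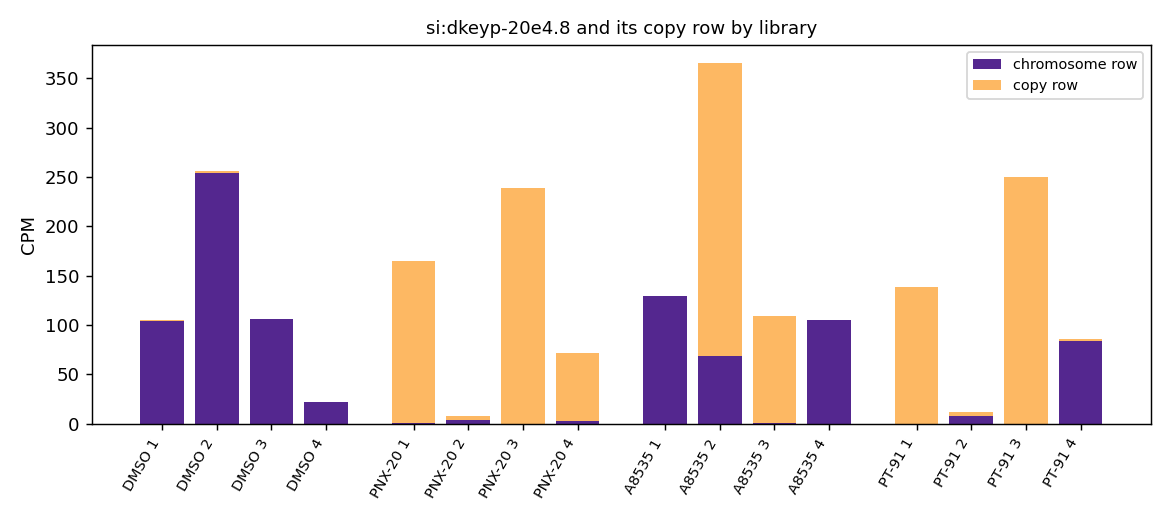
Stacked bars give the CPM of si:dkeyp-20e4.8 (chromosome 22 row) and of its copy row in each library. All 4 DMSO libraries hold the chromosome 22 row and all 4 PNX-20 libraries mostly the copy row, and the sums (122 and 121 CPM on average) did not differ beyond their spread.

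Treated and control ovaries were then compared with edgeR's quasi-likelihood test over all genes. Because membership required control reads and asked nothing of the treated libraries, counts of members by direction against control are given as a description. The 3 comparisons share the same 4 control libraries.

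With PNX-20, 225 members passed the low-count filter, and none of them passed an adjusted p of 0.05 (Benjamini-Hochberg over 17118 genes, edgeR, 0% of all genes passing). At an unadjusted p under 0.05 there were 11 (4.89%), against 2.51% of all genes tested, with 6 higher (background 1.30%) and 5 lower (background 1.21%). The median log2 fold change of the members was 0.05, against -0.02 for all genes. The count was 6 without PNX-20 library 1 (2.39%, against 2.27% of all genes) and 7 without control library 1 (2.75% against 2.04%). It was 17 without control library 2 (7.05% against 3.87%). DESeq2 put 16 members (7.11%) at an unadjusted p under 0.05, against 3.81% of all genes. It called 2 at an adjusted p of 0.05 (background 0.111%), si:dkeyp-20e4.8 and si:dkey-102m7.3.

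The lower of these calls rested on the choice of row. For the chromosome 22 row of si:dkeyp-20e4.8 the log2 fold change was -6.14 ± 1.11 (SE; unadjusted p = 0.000287, adjusted p = 0.956 in edgeR; adjusted p = 4.69e-07 in DESeq2). With the copy row added it was -0.01 ± 0.86 (edgeR, unadjusted p = 0.992). The other, si:dkey-102m7.3 on chromosome 14, had 0.334, 0, 0 and 0.629 CPM in control, from 11 reads in all, and 49.5, 19.3, 0.891 and 32.8 with PNX-20. It had 0.183, 65.8, 0.354 and 0.766 CPM with A8535, and 67.5, 361, 1.06 and 1.75 with PT-91, so 10 of 16 libraries were below 2 CPM and 6 above 19. Its log2 fold change with PNX-20 was 6.68 ± 1.39 (edgeR, unadjusted p = 0.000781, adjusted p = 0.998; DESeq2, adjusted p = 1.21e-05).

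Some smaller differences with PNX-20 were more even. oip5-as1 had a log2 fold change of 0.90 ± 0.34 (edgeR, unadjusted p = 0.0234, adjusted p = 0.998), with unadjusted p of 0.0072 to 0.085 and the same direction when each library was left out. si:ch73-132k15.2 had 0.55 ± 0.23 and LOC108190350 0.63 ± 0.27, both adjusted p = 0.998 in edgeR. With single libraries left out their unadjusted p reached 0.0958 and 0.130. On the lower side, si:dkey-163i6.7 on chromosome 21 had 6.94, 4.42, 7.15 and 4.49 CPM in control and 0.548, 2.65, 2.23 and 1.66 with PNX-20. These ranges do not overlap, and the log2 fold change was -1.68 ± 0.57 (edgeR, adjusted p = 0.998). LOC103909808 (-2.08), LOC110440197 (-1.70) and si:dkey-22p6.2 (-2.20) were the other 3 lower members at an unadjusted p under 0.05, and LOC100333722 (2.01) and LOC101884954 (2.65) completed the higher ones. Reads of si:dkey-22p6.2 were 165, 54, 3 and 125 in control and 31, 17, 7 and 22 with PNX-20. LOC100333722 had 35, 82, 16 and 20 against 249, 60, 283 and 23. LOC101884954 had 3, 36, 3 and 28 against 187, 211, 65 and 4. These 3 overlapped between the groups, whereas reads of LOC103909808 and LOC110440197 did not.

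With A8535, 222 members were tested, none at an adjusted p of 0.05 with edgeR (0% of 17377 genes) or with DESeq2 (background 0.0173%). At an unadjusted p under 0.05 edgeR gave 7 members (3.15%), against 2.48% of all genes. Of these, 4 were higher (background 1.76%) and 3 lower (background 0.719%). DESeq2 gave 10 (4.50%, against 4.07% of all genes). The share of members was thus close to that of all genes, and the median log2 fold change was 0.02. Without the high-mitochondrial A8535 libraries 2 and 3, none of 278 members was at an unadjusted p under 0.05 (edgeR), against 0.929% of all genes. Leaving out control library 1 gave 11 (4.40%, against 3.04% of all genes), and leaving out A8535 library 4 also gave 11 (4.25% against 4.45%).

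The higher members were si:dkey-31f5.8 on chromosome 4, oip5-as1, LOC795545 and LOC110438243. For oip5-as1 the log2 fold change was 0.96 ± 0.31 (edgeR, unadjusted p = 0.0125, adjusted p = 0.999), and without A8535 libraries 2 and 3 it was 0.58 ± 0.35 (unadjusted p = 0.138). si:dkey-31f5.8 had 1.00, 1.69, 0.490 and 0.899 CPM in control and 3.11, 15.2, 3.48 and 1.62 with A8535, which overlapped at 1 library and gave 2.56 ± 0.82 (edgeR, adjusted p = 0.999), and 1.44 without A8535 library 2 (unadjusted p = 0.05004). LOC795545 had 4.35, 19.4, 1.76 and 15.4 CPM in control and 16.5, 99.5, 50.3 and 31.4 with A8535, for 2.31 ± 0.80, 2.19 ± 0.83 with its copy row added, and 1.71 without A8535 library 2 (edgeR, unadjusted p = 0.0595).

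The 3 lower members were LOC100537681, LOC100536039 and nfr. LOC100537681, the divergent neighbour of socs9, had 33.2, 58.1, 39.3 and 55.4 CPM in control and 31.3, 17.9, 23.8 and 30.0 with A8535. The ranges did not overlap, and the log2 fold change was -0.84 ± 0.30 (edgeR, unadjusted p = 0.0191, adjusted p = 0.999). nfr on chromosome 5 had 27.6, 41.4, 26.9 and 45.0 CPM in control and 21.7, 21.5, 10.4 and 25.6 with A8535, again without overlap, for -0.81 ± 0.36 (adjusted p = 0.999). Without control library 4 their unadjusted p was 0.0656 and 0.152 (edgeR). LOC100536039 on chromosome 20 had -1.65 ± 0.67.

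With PT-91, 243 members were tested and none passed an adjusted p of 0.05 in edgeR (0% of 17276 genes). At an unadjusted p under 0.05 there were 26 (10.7%), against 6.81% of all genes, with 23 higher (background 5.33%) and 3 lower (background 1.49%). DESeq2 gave 38 (15.6%) at an unadjusted p under 0.05, against 9.25% of all genes. It called 3 at an adjusted p of 0.05 (background 0.197%), si:dkey-102m7.3, LOC100536415 and LOC101882529. The median log2 fold change of the members was 0.42, against 0.00 for all genes. Without the high-mitochondrial PT-91 libraries 1 and 2, 8 of 303 members were at an unadjusted p under 0.05, 3 higher and 5 lower (2.64%, against 1.72% of all genes), and the median was -0.06. Leaving out PT-91 library 2 alone left 13 (4.83%, against 3.37% of all genes). Leaving out control library 1 left 15 (5.45% against 4.41%), and control library 3 left 11 (3.85% against 2.79%). Leaving out PT-91 library 4 gave 54 (19.9% against 11.8%).

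The members called by DESeq2 were scarce in control. si:dkey-102m7.3 had a log2 fold change of 8.88 ± 2.07 (edgeR, unadjusted p = 0.00148, adjusted p = 0.712), and 2.49 ± 1.38 without PT-91 libraries 1 and 2 (unadjusted p = 0.109). LOC100536415 on chromosome 2 had 0.334, 0.562, 0 and 0 CPM in control and 1.03, 11.3, 5.84 and 1.66 with PT-91, without overlap. Its log2 fold change was 4.46 ± 1.24 (adjusted p = 0.712), and 3.98 ± 1.30 without those libraries (edgeR, unadjusted p = 0.0161). LOC101882529 on chromosome 11 had 0.418, 1.12, 0.392 and 0.719 CPM in control and 5.63, 30.5, 1.82 and 0.582 with PT-91, and its log2 fold change went from 3.97 ± 1.17 to 0.85 ± 0.91 without them. si:dkeyp-44b5.2 on chromosome 4 had 0.167, 0.482, 0 and 0.180 CPM in control and 1.03, 1.84, 9.09 and 1.66 with PT-91, without overlap, for 4.00 ± 1.07 (adjusted p = 0.712).

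Among the better measured members, oip5-as1 had its largest log2 fold change with PT-91, 1.34 ± 0.36 (edgeR, unadjusted p = 0.00397, adjusted p = 0.712), and 0.79 ± 0.37 without PT-91 libraries 1 and 2 (unadjusted p = 0.0696). For si:dkey-167i21.2, the thymosin match, it was 1.92 ± 0.77, and 0.04 ± 0.52 without those libraries. si:ch73-132k15.2 went likewise from 1.58 ± 0.61 to 0.34 ± 0.36. Without PT-91 library 2 alone they had 0.57 and 0.46. LOC795545, with 158, 56.1, 10.2 and 22.2 CPM, had 2.67 ± 0.93, 2.51 with its copy row added, and 1.56 without PT-91 library 1 (edgeR, unadjusted p = 0.104). The lower members were gas5, LOC101884632 and fam150ba. gas5 had -2.98 ± 1.17 (edgeR, unadjusted p = 0.0284, adjusted p = 0.712), from the control values of 1.67 to 141 CPM given above, and leaving out single libraries moved it between -3.81 and -1.01, the latter without control library 2. LOC101884632 had 25.9, 68.3, 7.35 and 15.9 CPM in control and 2.30, 5.63, 3.64 and 15.1 with PT-91, for -2.05 ± 0.78, and -1.23 without control library 2 (edgeR, unadjusted p = 0.127). fam150ba, which newer annotation calls alkal2a and lists as protein-coding, a ligand of the receptor kinases Alk and Ltk, had -1.64 ± 0.71.

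**Figure D5:**
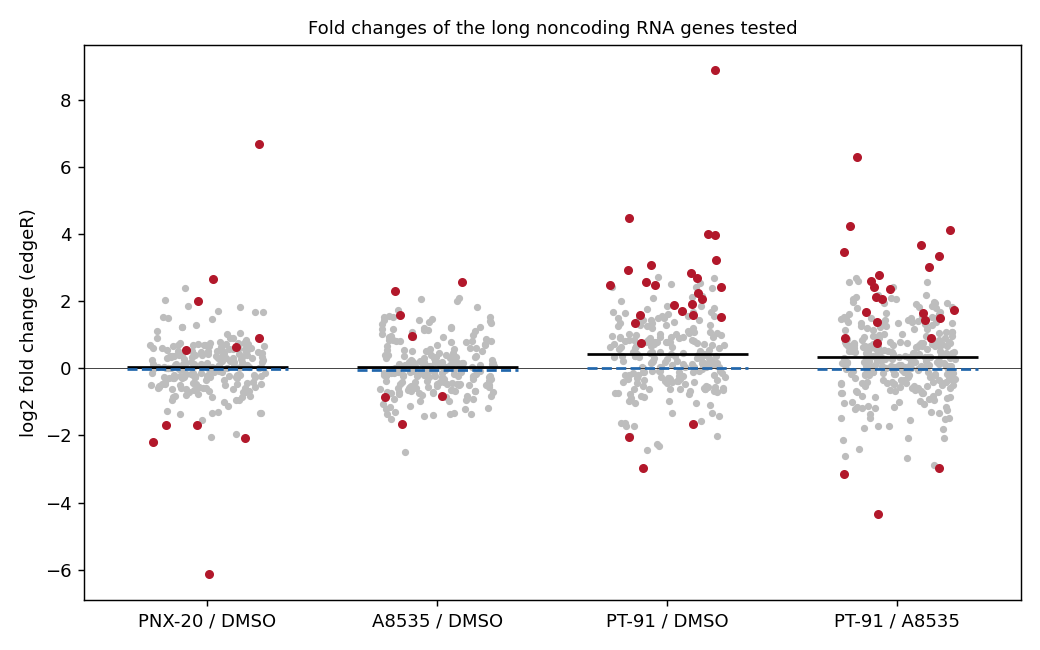
Points are log2 fold changes (edgeR) of the members tested in each comparison, red at an unadjusted p under 0.05 and grey otherwise, black lines are the member medians and dashed blue lines the medians of all genes tested. The member median was 0.42 for PT-91 and 0.02 for A8535 against DMSO, and 0.33 for PT-91 against A8535.

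The 2 agonists were given at the same dose and time, and the difference of their levels does not use the control reads by which the members were chosen. The fit took all 16 libraries, so the control libraries did enter its low-count filter, scaling and estimate of the spread. In this fit 327 members were tested. None passed an adjusted p of 0.05 with edgeR (0% of 19216 genes) or with DESeq2 (background 0.0104%). At an unadjusted p under 0.05 edgeR gave 25 members (7.65%), against 2.26% of all genes. Of these, 22 were higher with PT-91 (background 1.52%) and 3 lower (background 0.739%). DESeq2 gave 32 (9.79%, against 3.63% of all genes). The median log2 difference was 0.33, against -0.04 for all genes. Here too the count moved with single libraries. It was 7 of 356 without PT-91 library 2 (1.97%, against 1.79% of all genes), with a median of -0.01. It was 46 of 354 without A8535 library 2 (13.0% against 7.72%) and 39 of 363 without PT-91 library 4 (10.7% against 6.67%). Without all 4 high-mitochondrial libraries it was 2 of 367 (0.545%, against 0.862% of all genes).

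The member with the smallest p was si:ch73-112j3.1 (chromosome 11, 6069896 to 6074366, plus strand). It had 15.6, 13.6, 8.64 and 7.40 CPM with PT-91 and 3.75, 1.02, 3.60 and 6.04 with A8535, while the control values were 3.85, 5.70, 5.19 and 10.2. The agonist groups did not overlap. The log2 difference was 1.67 ± 0.53 (edgeR, unadjusted p = 0.00641, adjusted p = 0.967), stayed at an unadjusted p of at most 0.0203 when any single library was left out, and was 0.73 ± 0.64 without the 4 high-mitochondrial libraries (unadjusted p = 0.272). zgc:194207, by contrast, had 0, 70.1, 0.152 and 0 CPM with PT-91 and 0.274, 0.219, 0.354 and 0 with A8535, so its log2 difference of 6.30 ± 2.26 came from 1 library and was -1.87 without it. LOC100537816 (3.00), LOC103910292 (3.66) and si:dkey-33c14.7 (3.33) were the other leading members higher with PT-91, and si:ch211-163b2.2 (-2.98), LOC108182459 (-3.14) and LOC110438433 (-4.33) were the 3 lower ones. Reads of LOC100537816 were 55, 18, 14 and 8 with PT-91 and 3, 0, 5 and 5 with A8535. LOC103910292 had 50, 94, 23 and 3 against 8, 0, 1 and 6. si:dkey-33c14.7 had 5, 161, 33 and 23 against 5, 1, 7 and 15. si:ch211-163b2.2 had 0, 0, 8 and 2 against 18, 25, 38 and 9. LOC108182459 had 19, 0, 2 and 26 against 17, 400, 8 and 30, so it rested mainly on A8535 library 2. LOC110438433 had few reads, 0, 0, 0 and 1 against 12, 0, 0 and 17.

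For oip5-as1, gas5 and the 2 most abundant members the interval of the difference between the agonists included 0. The log2 difference of oip5-as1 was 0.34 (95% interval -0.36 to 1.05), that of si:dkey-167i21.2 0.68 (-1.09 to 2.45), that of si:ch73-132k15.2 0.56 (-0.74 to 1.86) and that of gas5 -2.08 (-5.43 to 1.26). Single libraries decided the sign of 3 of them: without PT-91 library 2 si:dkey-167i21.2 had -0.59 and si:ch73-132k15.2 -0.47, without A8535 library 2 they had 2.30 and 1.57 (edgeR, unadjusted p = 0.00794 and 0.0113), and gas5 had 0.30 without A8535 library 2. LOC103908986, also abundant, was at an unadjusted p under 0.05, with 0.90 (0.07 to 1.74; edgeR, adjusted p = 0.967), and stayed so in 10 of 16 fits that left out 1 library. The abundant si:dkey-88l16.5 was likewise at an unadjusted p under 0.05 (edgeR). It stayed so in 9 of 16 such fits, with log2 differences of 0.57 to 0.89.

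Many lncRNAs are turned over by nonsense-mediated decay in the cytoplasm and by the RNA exosome in the nucleus. Of 10 decay factors 9 were tested (upf1, upf2, upf3b, smg1 and smg5 to smg9), and of 15 exosome genes 13 were tested (9 exosc subunits, dis3, zcchc7, zcchc8 and rbm7). At an unadjusted p under 0.05, none was higher or lower with PNX-20 or with PT-91 against control. With A8535, smg9, a regulator of the decay kinase Smg1, had a log2 fold change of -0.68 ± 0.26 (edgeR, adjusted p = 0.999) and no other gene of the lists did so. Between the agonists, exosc8, a core subunit of the exosome, was higher with PT-91, at 1.13 ± 0.49 (edgeR, adjusted p = 0.967). The medians of the decay list against control were -0.25 (PNX-20), -0.26 (A8535) and -0.60 (PT-91), those of the exosome list 0.14, -0.20 and -0.14, and those of all genes -0.02, -0.04 and 0.00.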

How the data were processed

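RNA was measured in 16 libraries, 4 per group. The study's methods name fastp for read cleaning, HISAT2 2.0.5 with the GRCz11 genome for alignment and featureCounts 1.5.0-p3 for counting, and the authors deposited its raw read counts per gene. How reads matching several rows were counted was not stated. The deposited normalized values, FPKM, fold changes and p-values were not used, and the 3 tables hold identical control counts. The deposited gene length, an annotation and no measurement, served for RPKM.

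Counts were tested in R 4.3.3 with edgeR 4.0.16 (filterByExpr, TMM scaling, robust quasi-likelihood fit, treatment and control only, or all 16 libraries for PT-91 against A8535), with DESeq2 1.42.0 as an alternative. The edgeR code was run on simulated counts with less spread between libraries than these data. That run does not show how the test behaves here. CPM are TMM-scaled. Read totals set the precision of low counts, and n = 4 that of the rest.

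Named members were the 15 most abundant, the 5 higher and 5 lower of smallest p per comparison (of which only those past an unadjusted p of 0.05 are named), known lncRNAs, the 5 highest and lowest control CVs, those at the threshold and the 3 highest of each position class; others are marked. Members and lists were chosen with earlier results of these data known. Alternatives were another scaling, other filters, left-out libraries, a replicate block, summed copies and another read minimum. No sequences are shown.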

Additional observations from a re-analysis of the deposited data

Results flagged for a closer look

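For 27 members shown and the share of reads on members, 24 of 112 groups had a library far from the other 3 by Dixon's test. In 11 of the 24 it was A8535 library 2, above the others each time. The test's nominal rate of 1 in 20 is no measure for this count. Some of these members were chosen for extreme values in these data, and all share the same libraries. Those 11 values were 6055 CPM for si:dkey-167i21.2, 1971 for si:ch73-132k15.2, 579 for LOC110440102, 1328 for si:ch211-160e1.5, 1054 for si:ch211-226l4.6, 75.0 for gas5, 65.8 for si:dkey-102m7.3, 15.2 for si:dkey-31f5.8, 2.11 for si:ch211-193l2.7, 31.0 for tmem238b, and 1.46% for the share of reads.

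PT-91 library 2 stood apart for si:ch73-132k15.2 (2930 CPM), LOC101882529 (30.5 CPM) and zgc:194207 (70.1 CPM), PT-91 library 1 for si:ch211-193l2.7 (7.06 CPM), PT-91 library 3 for si:dkeyp-44b5.2 (9.09 CPM) and PT-91 library 4 for si:dkeyp-20e4.8 (83.5 CPM). PNX-20 library 1 did so for gas5 (276 CPM) and si:ch211-193l2.7 (0.939 CPM), and PNX-20 library 2 for LOC101884632 (87.1 CPM). In control these were library 1 for si:ch73-14h10.2 (49.2 CPM), library 2 for gas5 (141 CPM) and zgc:194207 (0.964 CPM), and library 4 for si:ch211-193l2.7 (31.5 CPM).

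For si:ch73-112j3.1, every PT-91 library was above the control mean and every A8535 library below it, with 7.71 CPM between the agonist means; the difference of these effects equals the comparison of the agonists given above.

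Among the 1044 lncRNA rows of any table that were not members, 4 had under 10 control reads but at least 100 reads in a treated library. LOC110438668 had 413 reads in PNX-20 library 1, LOC103910791 had 122 in PNX-20 library 3, and si:ch73-295i22.2 and LOC101883640 had 181 and 107 in A8535 library 2.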

How the results depend on the processing

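The counts of members at an unadjusted p under 0.05 (11, 7, 26 and 25 for PNX-20, A8535, PT-91 and PT-91 against A8535) stayed within 1.5 times under the other scaling, the stricter filter, DESeq2, summed copies and the other member rule. Without a filter the first 3 were 24, 16 and 40 of 487 members tested. Those are 4.93%, 3.29% and 8.21%, against 3.42%, 2.99% and 6.56% of all genes. Leaving out each library gave 6 to 17, 5 to 11, 11 to 54 and 7 to 46. Without the high-mitochondrial libraries the counts were 0 for A8535, 8 for PT-91 and 2 between the agonists. That alternative was chosen after seeing the data, and it selects on a measure that treatment may change. The fits are unpaired. Per the study each ovary was divided among the treatments, but whether equal replicate numbers mark 1 fish was not stated. Deviations of same-numbered libraries correlated at -0.29 to 0.24 against control. Between the agonists they did so at -0.03, 0.26, 0.46 and 0.58 for numbers 1 to 4, each of the last 3 being the best match, a hint that these may be paired. Against control the best match mostly bore another number, as it did for every PNX-20 library. A8535 library 4 and PT-91 library 4 both matched control library 1 best. In the comparisons with control the replicate block may thus join unrelated libraries, so there it cannot check pairing. The replicate block gave 7 for PNX-20 (3.11%, against 1.58% of all genes) and 5 for A8535 (2.25% against 1.28%). It gave 22 for PT-91 (9.05% against 4.45%) and 17 between the agonists (5.20% against 2.27%). The cause of these moves was not tested.

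Other sign changes included these, and the list is not complete. When single libraries were left out, si:dkey-167i21.2 ran from -0.46 to 1.47 with A8535. LOC101884632 ran from -2.08 to 0.74 with PNX-20 and from -1.36 to 1.14 with A8535. Over the left-out libraries gas5 ran from -3.30 to 2.71 with PNX-20 (-0.90 with the replicate block), from -3.33 to 1.06 with A8535, and from -2.87 to 0.30 between the agonists. zgc:194207 ran from -1.87 to 6.71 between the agonists and was -0.68 without the high-mitochondrial libraries. si:ch73-46j18.5 ran from -0.16 to 0.45 with A8535, from -0.17 to 0.52 with PT-91, and from -0.32 to 0.40 between the agonists (-0.054 without the high-mitochondrial libraries). si:dkey-150k17.3 ran from -0.095 to 0.51 with PNX-20 and from -0.12 to 0.64 between the agonists (-0.11 without the high-mitochondrial libraries). Depth limits the members under 1 CPM, about 10 reads in a library.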
